A study of Mus musculus with 19 samples.

Results

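The genes described here are 8 transcription factors of the stellate and mesenchymal lineage: Lhx2, Gata4, Gata6, Tcf21, Hand2, Foxf1, Tbx2 and Ets1. They were picked by name and found in the count matrix by matching its Ensembl gene identifiers to mouse gene symbols, so that they make up 8 of 55487 listed genes. All 8 had enough counts to enter the tests, which covered 15138 genes. The cells were hepatic stellate cells (HSCs) of healthy male Balb/c mice aged 23 to 24 weeks, sorted by the ultraviolet fluorescence of their vitamin A. The 0 h group was collected right after sorting with no culture and had 2 samples. The other groups were grown on collagen-coated plates in medium with 10% fetal bovine serum for 3, 6, 12, 18 or 96 h, with 3 samples each, or for 24 h, with 2 samples. The medium also held penicillin-streptomycin and glutamine and was renewed at 3 h and 24 h. The study describes its repeats as independent, each of them representing 2 technical repeats. The labels number the samples of each time as replicates 1 to 3 and name the date of cell isolation, which was one date for all samples of replicates 1 and 3 and another for those of replicate 2. The 0 h group lacks replicate 1 and the 24 h group lacks replicate 3.

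Transcription factors of this kind bind DNA and keep a cell's identity by holding a set of genes on or off. HSCs descend from the mesenchyme of the embryonic liver and rest in the space beside the sinusoids, where they store vitamin A. On plastic or after injury they lose the vitamin A stores and turn into matrix-producing myofibroblasts. Lhx2 is a LIM homeodomain factor, Gata4 and Gata6 are zinc finger factors, Tcf21 and Hand2 are basic helix-loop-helix factors, Foxf1 is a forkhead factor, Tbx2 is a T-box repressor and Ets1 gave the ETS family its name. Mice without Lhx2 develop liver fibrosis, and Gata4 is also active in the endothelium that lines the liver sinusoids.

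RNA was read from its 3′ ends, so that each molecule gives about 1 read whatever its length. Levels are given in CPM, the counts of a gene relative to the library total, scaled by the trimmed mean of M-values (TMM). The samples held between 2073171 and 7690892 counts, and 3 counts, taken as the smallest level that the depth can show, corresponded to between 0.386 and 1.51 CPM. This floor reflects depth only, and samples of one time could differ by more. Tcf21 at 6 h, for example, had 0 counts in replicates 1 and 3 and 115 in replicate 2. The 11 HSC marker genes were all detected at 0 h, with summed levels of 32081 to 37474 CPM, and summed to 2658 to 3052 CPM at 96 h. Other liver cells were present too. The hepatocyte marker sum fell from between 3258 and 6931 CPM at 0 h to between 402 and 1165 CPM at 3 h, and the Kupffer cell marker sum from between 432 and 477 CPM at 0 h to between 37.7 and 45.9 CPM at 6 h. In such bulk samples, fewer cells of a type and less RNA per cell cannot be told apart.

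Freshly sorted HSCs held their highest levels of Lhx2, Hand2, Foxf1 and Tcf21. For each of these 4 genes, all 17 cultured samples lay below both samples at 0 h, a pattern seen in 6.28% of all genes tested. Tbx2 was below both in 16 of 17 cultured samples. Ets1 went the other way at first and lay above both samples at 0 h in 12 of the 17, while Gata4 lay below both in 11 and above both in 6. Gata6 was the least ordered, with 5 cultured samples below both and 5 above both.

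**Figure D1:**
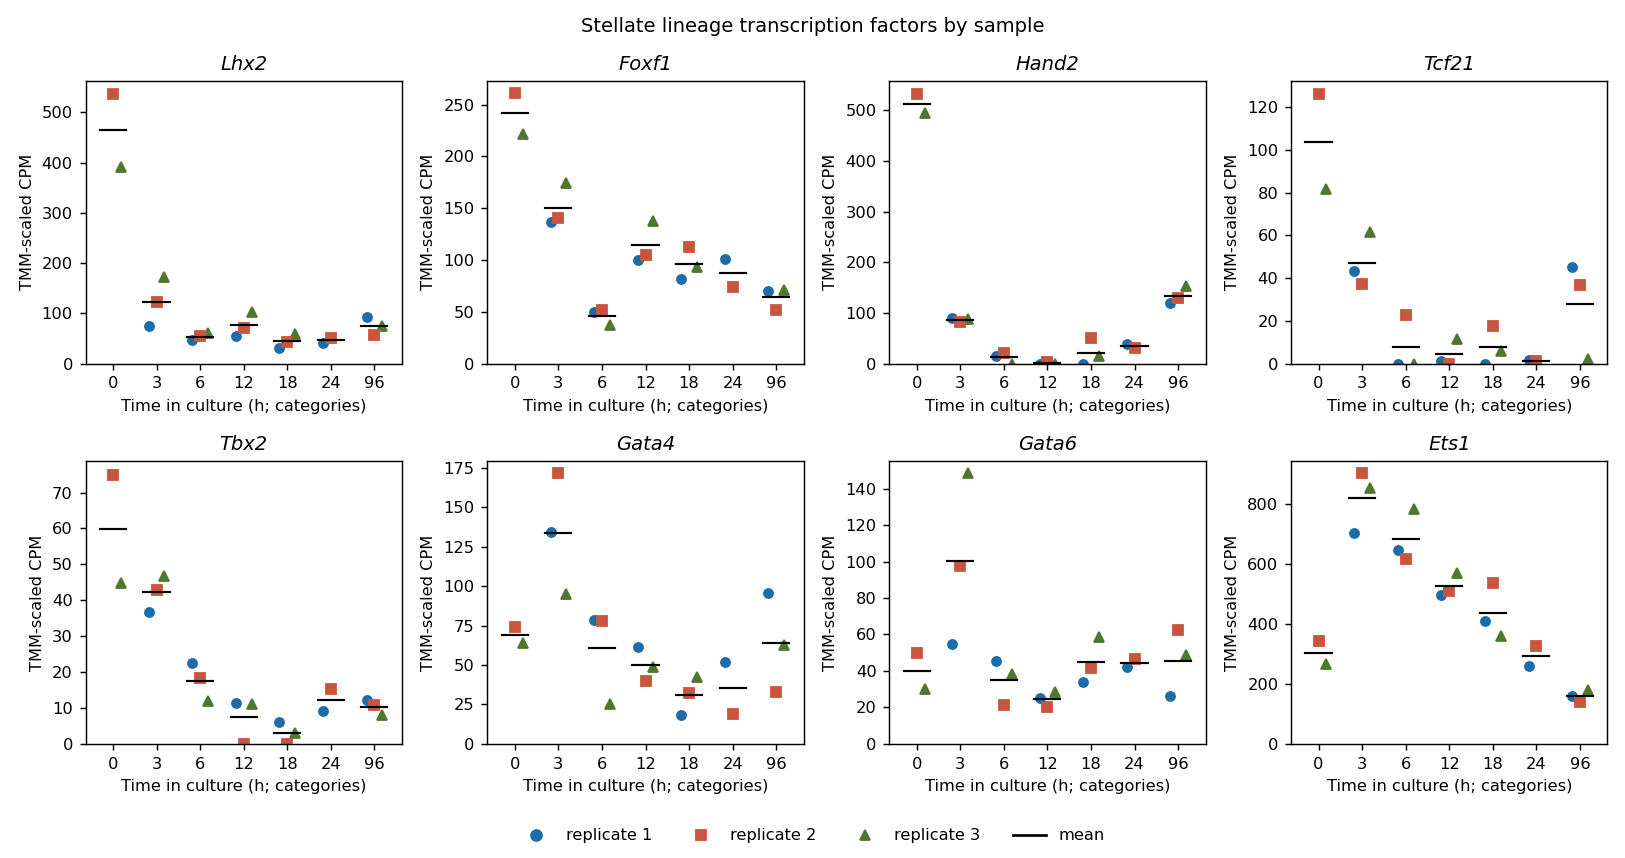
Each panel plots 1 transcription factor, with TMM-scaled CPM on a linear axis from 0 against time in culture as categories; symbols are single samples by replicate number and the line is the mean of the group. Lhx2, Hand2, Foxf1 and Tcf21 were highest in the 2 samples at 0 h, whereas Ets1 was highest at 3 h, with 704 to 905 CPM.

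Differences were tested with edgeR's quasi-likelihood test in 1 fit of all 19 samples, and a gene was called when its Benjamini-Hochberg adjusted p was under 0.1 and its fold change above 2. Of the 8 genes, 6 differed between any of the 7 times at an adjusted p under 0.1, compared with 27.4% of all genes tested. Tbx2 (edgeR adjusted p = 0.21) and Tcf21 (edgeR adjusted p = 0.265) missed the threshold in this test.

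Against 0 h, 1 of the 8 genes was called lower at 3 h and 1 higher, beside 1.39% and 4.19% of all genes. At 6 h, 3 were called lower and 1 higher, beside 4.35% and 6.98%. At 12 h, 3 were lower and 0 higher, beside 9.1% and 8.6%. The largest number was at 18 h, with 4 lower and 0 higher beside 8.21% and 7.64%. At 24 h and at 96 h, 2 were lower and 0 higher, beside 3.86% and 5.65% at 24 h and 5.03% and 5.83% at 96 h. The median log2 fold change of the 8 genes was -0.59 at 3 h and -2.08 after 6 h, -1.84 after 12 h and -2.36 after 18 h, and -1.87 after 24 h and -1.90 after 96 h, whereas the median of all genes tested was 0 until 24 h and 0.07 at 96 h. DESeq2 also called 0 of the 8 genes higher from 12 h on, and an unadjusted p under 0.05 with a higher level was found for Ets1 at 12 h and 18 h. With the replicate number as a block these counts stayed the same at every time.

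**Figure D2:**
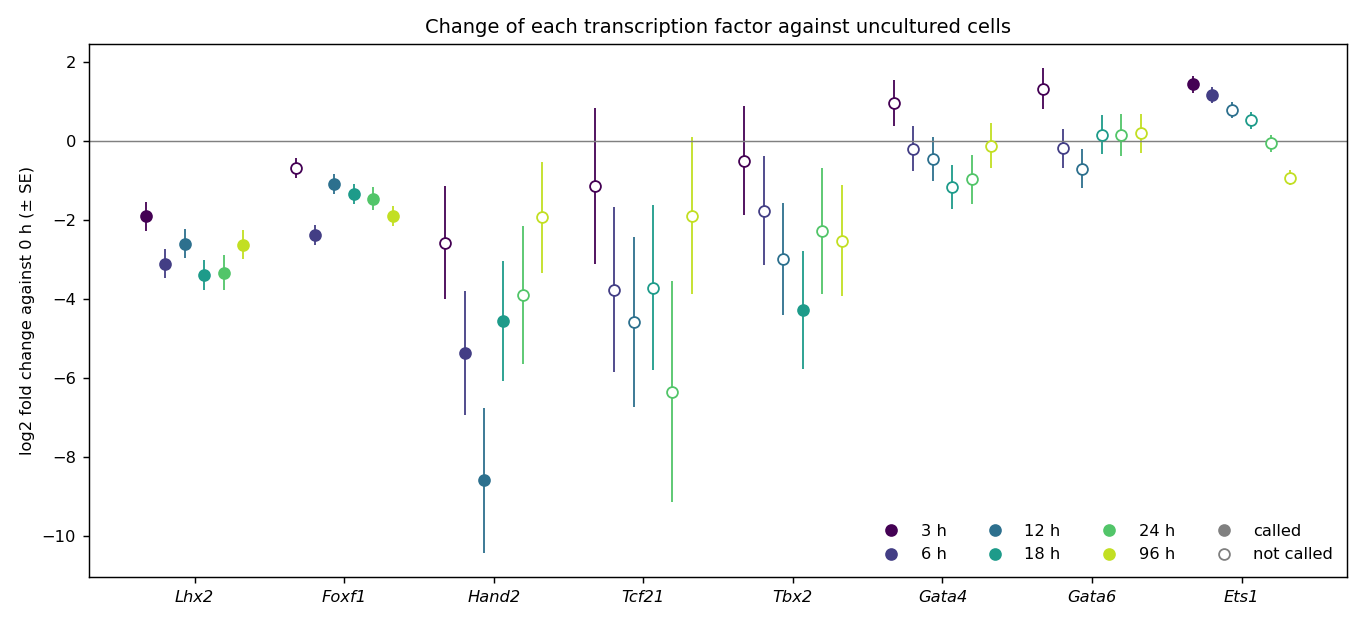
The log2 fold change against 0 h is plotted for each transcription factor at the 6 culture times. Error bars are standard errors worked back from the F statistic. Filled points were called and open points were not. Lhx2 was called lower at all 6 times, and the wide error bars of Hand2, Tcf21 and Tbx2 belong to genes with samples at 0 counts.

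Lhx2 (ENSMUSG00000000247; GRCm38 chr2:38339281-38369733, + strand) was the only one of the 8 genes called lower at every time in culture. At 0 h its level was 391 CPM in replicate 3 and 537 CPM in replicate 2. At 3 h it was 74.3, 123 and 173 CPM in replicates 1, 2 and 3, and at 6 h 46.6, 54.1 and 60.7 CPM. These 2 groups did not overlap with each other or with 0 h. The level stayed low at 12 h (55.6, 70.2 and 104 CPM), at 18 h (31.9, 42.3 and 58.1 CPM) and at 24 h (41.8 and 50.5 CPM in replicates 1 and 2). At 96 h it was 93.8, 57.2 and 73.9 CPM in replicates 1, 2 and 3. Every sample at 96 h lay above both at 24 h, a difference that was not called (0.70 ± 0.37, edgeR adjusted p = 0.512).

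The log2 fold change of Lhx2 against 0 h was -1.91 ± 0.36 (SE) at 3 h (edgeR adjusted p = 0.00455), -3.11 ± 0.37 at 6 h and -2.60 ± 0.37 after 12 h. It was -3.39 ± 0.37 after 18 h, -3.33 ± 0.44 after 24 h and -2.63 ± 0.37 after 96 h (edgeR adjusted p = 0.000164). Samples of the same number, which share an isolation date, could be set side by side with 0 h for replicates 2 and 3. The 11 changes lay between -1.18 and -3.65 on the log2 scale. All had to be falls, since every cultured sample lay below both at 0 h. They also rest on the same 2 samples at 0 h. The further fall from 3 h to 6 h was called too, at -1.20 ± 0.33 (edgeR adjusted p = 0.0574), one of 3 calls in that direction and 0 in the other among the 8 genes, beside 1.99% and 2.5% of all genes. That step fell to -0.92 without replicate 3 at 3 h and was then not called.

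The promoter of Lhx2 is shown because this gene had the most stable fall. Promoter windows of RefSeq (GRCm38.p6), from 250 bases before to 50 after a gene's start, were read for 3 of the 8 genes, Lhx2, Hand2 and Tcf21. The others of the 8, both GATA factors among them, were not searched, and the choice does not show that they lack windows. The windows read were searched on both strands for the GATA motif (AGATAA, with A or T as its first and A or G as its last letter) and for the E-box (CANNTG). GATA factors bind the former and basic helix-loop-helix factors the latter, and the E-box reads the same on both strands. The core letters bound by ETS factors (CCGGAA) were searched as well. Of 32851 such windows of mouse genes, 29.8% held the GATA motif, 72.3% the E-box and 14.9% the ETS core. The ETS core had 0 matches in the windows of Lhx2, Hand2 and Tcf21. Capitals mark the GATA motif or the E-box in the sequences given here. Neither was found in the window at the start of the longer Lhx2 transcript, chr2:38339031-38339330, + strand, so that it has no capitals:
Lhx2: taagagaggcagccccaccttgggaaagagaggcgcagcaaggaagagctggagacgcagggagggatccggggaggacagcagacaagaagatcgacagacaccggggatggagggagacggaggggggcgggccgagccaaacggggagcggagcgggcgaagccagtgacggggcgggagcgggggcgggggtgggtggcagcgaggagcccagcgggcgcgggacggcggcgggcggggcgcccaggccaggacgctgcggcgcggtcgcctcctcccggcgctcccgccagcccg
The window of a second Lhx2 start, chr2:38351058-38351357, held 1 E-box and 0 GATA motifs.

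Foxf1 (ENSMUSG00000042812; chr8:121084386-121088144, + strand) fell in steps with a low point at 6 h. At 0 h it measured 221 CPM in replicate 3 and 262 CPM in replicate 2. At 3 h the samples were at 137, 141 and 174 CPM in replicates 1, 2 and 3, and at 6 h at 50.1, 51.5 and 37.3 CPM. These 3 times did not overlap. At 12 h the level was higher again, with 99.8, 105 and 137 CPM in replicates 1, 2 and 3. It was 81.6, 112 and 93.1 CPM at 18 h, and 101 and 74.2 CPM at 24 h in replicates 1 and 2. At 96 h it was 69.7, 52.2 and 71.1 CPM, below every sample at 12 h.

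Against 0 h, the log2 fold change of Foxf1 was -0.68 ± 0.25 at 3 h, which was not called (edgeR adjusted p = 0.184), and -2.38 ± 0.26 at 6 h (edgeR adjusted p = 1.8e-05). It was -1.08 ± 0.25 after 12 h, -1.33 ± 0.25 after 18 h, -1.46 ± 0.29 after 24 h and -1.91 ± 0.25 at 96 h (edgeR adjusted p = 0.000108), all called. Within replicates 2 and 3, the 11 changes lay between -0.35 and -2.56, and had to be falls with every cultured sample below both at 0 h. The call at 12 h lay close to the fold threshold and was lost when libraries were scaled by their size alone (-0.98), without replicate 2 at 0 h (-0.95) and without replicate 1 at 12 h (-0.99). Between culture times, Foxf1 fell from 3 h to 6 h by 1.70 ± 0.24 on the log2 scale (edgeR adjusted p = 0.000919) and rose from 6 h to 12 h by 1.30 ± 0.23 (edgeR adjusted p = 0.0083). The rise was the only call among the 8 genes in that step, beside 0.416% of all genes called higher and 1.42% called lower.

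Fendrr, a long noncoding RNA that starts 1276 bp from the start of Foxf1 on the other strand (chr8:121054882-121083110), had its low point later than Foxf1, at 12 h. It measured 139 and 250 CPM at 0 h in replicates 3 and 2, and 95.9 to 115 CPM at 3 h. At 6 h it was at 6.16 to 7.49 CPM, and at 12 h at 2.32, 3.39 and 0.133 CPM in replicates 1, 2 and 3, the last being 1 count. At 24 h and 96 h it lay between 19.9 and 30.0 CPM. The 3 groups at 0 h, 3 h and 6 h did not overlap, and all 17 cultured samples lay below both at 0 h.

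The log2 fold change of Fendrr was -0.87 ± 0.65 at 3 h (edgeR adjusted p = 0.572), -4.83 ± 0.72 at 6 h (edgeR adjusted p = 0.000336), -6.65 ± 0.78 at 12 h (edgeR adjusted p = 2.23e-05) and -3.05 ± 0.67 at 96 h (edgeR adjusted p = 0.00783). It rose from 12 h to 96 h by 3.59 ± 0.67 (edgeR adjusted p = 0.00195), whereas Foxf1 was -0.83 ± 0.23 in the same step, under a fold of 2. From 6 h to 12 h, where Foxf1 rose, the change of Fendrr was -1.82 ± 0.64 and was not called (edgeR adjusted p = 0.227). Whether the changes of the 2 genes differ was not tested. The call of Fendrr at 24 h was lost without replicate 2 at 0 h (-2.60) or without either sample at 24 h (-3.06 and -3.05), and the call at 96 h without replicate 2 at 0 h (-2.57).

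Hand2 (ENSMUSG00000038193; chr8:57320983-57324633, + strand) had the highest mean CPM of the 8 genes at 0 h and was at 0 counts in 4 cultured samples. It measured 495 CPM in replicate 3 and 531 CPM in replicate 2 at 0 h. At 3 h the 3 samples were within 81.3 and 90.2 CPM. At 6 h replicates 1 and 2 held 15.7 and 21.9 CPM and replicate 3 had 0 counts. At 12 h replicates 1 and 3 had 0 counts and replicate 2 held 3.90 CPM, from 23 counts. The level was then higher, with 0, 49.8 and 15.6 CPM at 18 h in replicates 1, 2 and 3, and with 38.0 and 30.7 CPM at 24 h. At 96 h it was 120, 129 and 153 CPM, above every other cultured sample and below both samples at 0 h.

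Hand2 was called lower at 6 h, with a log2 fold change of -5.36 ± 1.57 (edgeR adjusted p = 0.0421), at 12 h with -8.58 ± 1.83 (edgeR adjusted p = 0.00423) and at 18 h with -4.55 ± 1.52 (edgeR adjusted p = 0.0633). It was not called at 3 h (-2.57 ± 1.42, edgeR adjusted p = 0.418), 24 h (-3.90 ± 1.74, edgeR adjusted p = 0.234) or 96 h (-1.94 ± 1.40, edgeR adjusted p = 0.457), although none of these groups overlapped with 0 h. In that fit the spread of Hand2 is shared with the times that have samples at 0 counts. When only the 2 groups compared were fitted, 3 h, 24 h and 96 h were called (edgeR adjusted p = 0.00518, 0.0139 and 0.00485) and 18 h was not (edgeR adjusted p = 0.123). The call at 6 h was lost without either sample at 0 h (edgeR adjusted p = 0.126 and 0.107), and that at 18 h likewise (edgeR adjusted p = 0.158 and 0.143). The higher level at 96 h than at 12 h was called, at 6.64 ± 1.68 (edgeR adjusted p = 0.0159). In that step Hand2 was the only one of the 8 genes called higher and Ets1 the only one called lower, beside 6.96% and 6.57% of all genes. Within replicates 2 and 3, the 11 changes against 0 h were falls of at least 1.69 on the log2 scale. Their direction was given, since every cultured sample lay below both at 0 h.

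Hand2os1 (chr8:57281117-57324233) is a noncoding RNA on the strand opposite to Hand2 whose span in the GENCODE annotation covers most of Hand2. The library kit keeps strand, but the strand setting used in counting is not given in the sources used here, so that the counts of this pair are uncertain where they overlap. Hand2os1 measured 470 and 631 CPM at 0 h in replicates 3 and 2, and 78.9 to 127 CPM at 3 h. It was 37.4, 20.7 and 12.8 CPM at 6 h in replicates 1, 2 and 3, and 4.63, 27.98 and 6.81 CPM at 12 h. At 18 h it was 15.8, 0.877 and 6.14 CPM, and at 96 h 77.1, 50.8 and 59.0 CPM. Like Hand2 it lay below both samples at 0 h in all 17 cultured samples and was higher in every sample at 96 h than in any at 12 h. The samples did not follow each other one by one, since replicate 2 at 18 h had the highest Hand2 and the lowest Hand2os1 of that time.

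The log2 fold change of Hand2os1 was -4.55 ± 0.85 at 6 h (edgeR adjusted p = 0.00211), -5.38 ± 0.87 at 12 h (edgeR adjusted p = 0.000436), -6.19 ± 0.91 at 18 h (edgeR adjusted p = 0.000191) and -3.14 ± 0.80 at 96 h (edgeR adjusted p = 0.0199). At 3 h it was -2.49 ± 0.79 and just called (edgeR adjusted p = 0.0999), and not with the replicate number as a block (edgeR adjusted p = 0.116). The rise from 12 h to 96 h was 2.24 ± 0.74 (edgeR adjusted p = 0.0686), or 2.19 with the replicate number as a block, where it was not called (edgeR adjusted p = 0.102). The call at 96 h was lost without replicate 2 at 0 h (edgeR adjusted p = 0.11).

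The Hand2 promoter is shown because the RefSeq starts of Hand2 and Hand2os1 lie 124 bp apart on opposite strands, so that their windows share 223 bp. The GENCODE span given before has another start for Hand2os1, 3250 bp from that of Hand2. Read from the RefSeq start, Hand2os1 would not overlap Hand2. The Hand2 window, chr8:57320733-57321032, + strand, held 2 E-boxes and 2 GATA motifs (the second of them as its reverse complement, TTATCT), all in its first 100 bases. None of these 4 lies before the RefSeq start of Hand2os1, whose window held 0 E-boxes and 1 GATA motif, after that start. This motif is the same site as the second GATA motif of the Hand2 window:
Hand2: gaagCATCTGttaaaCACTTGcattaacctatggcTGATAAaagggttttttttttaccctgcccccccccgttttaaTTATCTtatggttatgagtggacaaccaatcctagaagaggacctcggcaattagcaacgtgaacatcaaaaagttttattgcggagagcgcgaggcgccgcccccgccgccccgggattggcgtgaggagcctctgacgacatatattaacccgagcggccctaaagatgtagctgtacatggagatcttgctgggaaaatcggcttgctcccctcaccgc
These matches are letters in a window and not binding measured in these cells.

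**Figure D3:**
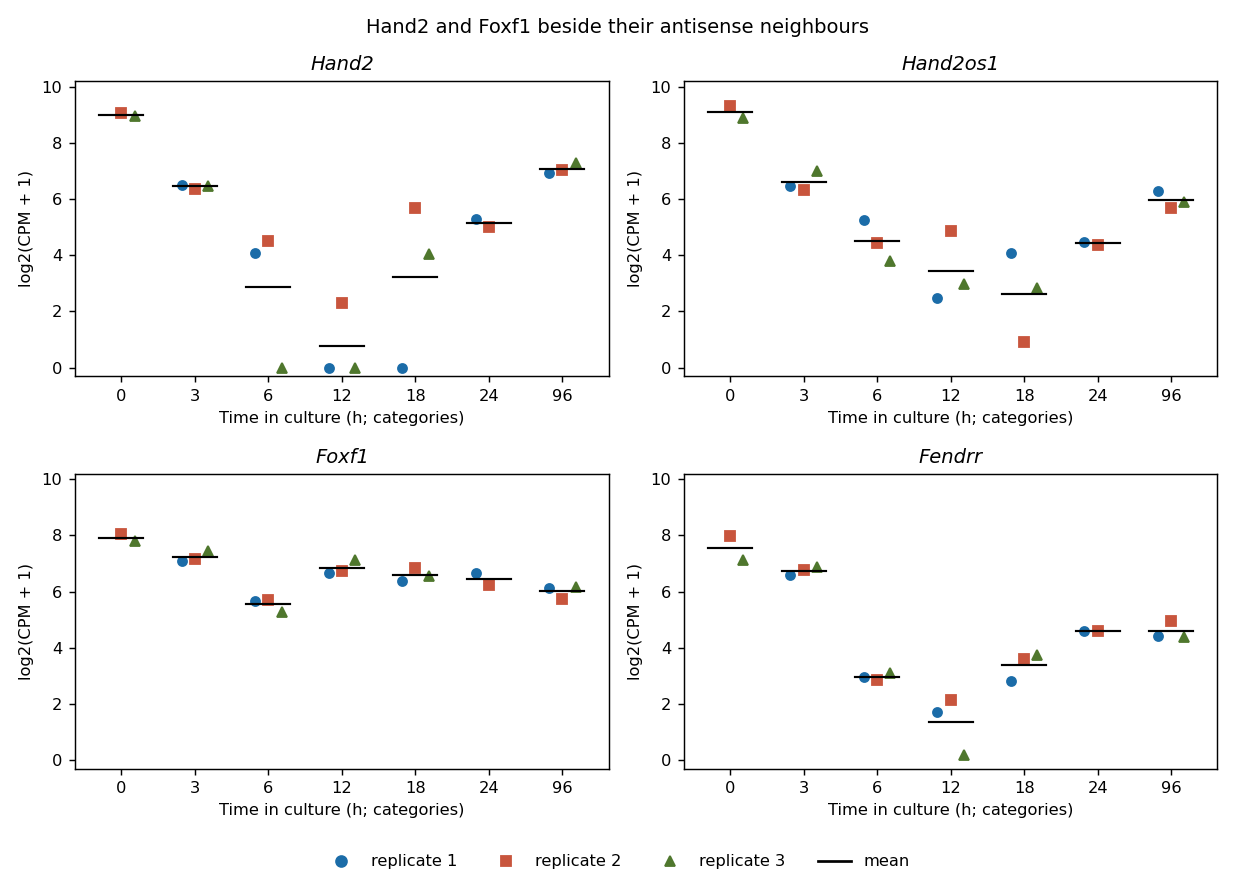
Levels of Hand2, Hand2os1, Foxf1 and Fendrr are plotted per sample as log2(CPM + 1), with the mean of these log values as a line and symbols by replicate number. Hand2, Hand2os1 and Fendrr had their lowest levels at 12 h or 18 h and were higher at 96 h, whereas Foxf1 was lowest at 6 h.

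Tcf21 (ENSMUSG00000045680; chr10:22817281-22820174, - strand), a marker of resting HSCs and of several other mesenchymes, was lower in all cultured samples but scattered widely. It measured 81.8 CPM in replicate 3 and 126 CPM in replicate 2 at 0 h, and 43.1, 37.1 and 61.4 CPM at 3 h in replicates 1, 2 and 3. At 6 h replicates 1 and 3 had 0 counts while replicate 2 held 22.9 CPM. At 12 h the samples were at 1.39, 0 and 11.5 CPM, and at 18 h at 0, 17.7 and 5.96 CPM. The lowest group was 24 h, with 1.502 and 1.03 CPM. At 96 h replicates 1 and 2 were at 45.0 and 36.8 CPM and replicate 3 at 2.36 CPM, so that the replicates of this time spread widely.

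No change of Tcf21 against 0 h was called. The log2 fold change was -1.14 ± 1.97 at 3 h, -3.76 ± 2.09 at 6 h (edgeR adjusted p = 0.302), -4.58 ± 2.15 at 12 h (edgeR adjusted p = 0.18), -6.34 ± 2.79 at 24 h (edgeR adjusted p = 0.226) and -1.89 ± 1.98 at 96 h. DESeq2 called it lower at 12 h (-4.83, DESeq2 adjusted p = 0.0676) and 24 h (-6.57, DESeq2 adjusted p = 0.0261), and so did edgeR at 24 h when only the 2 groups were fitted (edgeR adjusted p = 0.015). Without replicate 2 at 6 h, both remaining samples at that time were at 0 counts, Tcf21 was called lower at 6 h (edgeR adjusted p = 0.0317), and its difference over all times passed too (edgeR adjusted p = 0.0465). Its promoter window, chr10:22820094-22820393, - strand, is shown for comparison with that of Hand2 and held 1 GATA motif and 0 E-boxes:
Tcf21: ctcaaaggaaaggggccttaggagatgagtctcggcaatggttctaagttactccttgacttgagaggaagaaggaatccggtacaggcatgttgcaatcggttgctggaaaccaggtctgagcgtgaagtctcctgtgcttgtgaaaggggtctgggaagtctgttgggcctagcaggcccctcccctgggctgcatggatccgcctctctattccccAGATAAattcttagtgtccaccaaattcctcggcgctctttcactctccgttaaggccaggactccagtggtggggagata

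Tbx2 (ENSMUSG00000000093; chr11:85832551-85841948, + strand) declined to a low point at 18 h. It was at 44.7 and 75.0 CPM at 0 h in replicates 3 and 2, and at 36.8, 42.9 and 46.8 CPM at 3 h in replicates 1, 2 and 3, where replicate 3 exceeded its own sample at 0 h. At 6 h it was at 22.5, 18.3 and 11.9 CPM, at 12 h at 11.4, 0 and 11.1 CPM, and at 18 h at 6.09, 0 and 3.17 CPM. At 24 h it was at 9.23 and 15.4 CPM, and at 96 h at 12.3, 10.8 and 8.09 CPM. From 6 h on, no cultured sample reached the level at 0 h.

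The only called change of Tbx2 was at 18 h, with a log2 fold change of -4.28 ± 1.48 (edgeR adjusted p = 0.0747), and it was lost without either sample at 0 h (edgeR adjusted p = 0.213 and 0.122) and when only the 2 groups were fitted (edgeR adjusted p = 0.17). At 12 h it was -2.998 ± 1.42 (edgeR adjusted p = 0.182) and at 96 h -2.52 ± 1.40 (edgeR adjusted p = 0.316). DESeq2 called 12 h (-3.23, DESeq2 adjusted p = 0.0399), and edgeR on the 2 groups called 24 h (edgeR adjusted p = 0.0904) and 96 h (edgeR adjusted p = 0.0294).

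The GATA factors had their highest means at 3 h. Gata4 (ENSMUSG00000021944; chr14:63198922-63271692, - strand) was at 64.3 and 74.2 CPM at 0 h in replicates 3 and 2, and at 134, 172 and 95.4 CPM at 3 h in replicates 1, 2 and 3. All samples at 3 h were above both at 0 h. At 6 h it was at 78.6, 77.7 and 25.4 CPM, at 12 h at 61.6, 40.2 and 48.6 CPM, and at 18 h at 18.0, 32.5 and 42.5 CPM. At 24 h it was at 51.7 and 19.03 CPM. At 96 h the samples ranged over 95.8, 32.9 and 62.7 CPM, around the level at 0 h.

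No change of Gata4 against 0 h was called. The log2 fold change was 0.95 ± 0.58 at 3 h (edgeR adjusted p = 0.469), -1.16 ± 0.56 at 18 h (edgeR adjusted p = 0.2) and -0.12 ± 0.56 at 96 h (edgeR adjusted p = 0.972). DESeq2 called it lower at 18 h (-1.40). Over all times the difference passed (edgeR adjusted p = 0.0662), and it no longer did when replicate 1 or 2 was left out at 3 h or at 18 h, or when libraries were scaled by size alone.

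The summed level of 10 markers of sinusoidal endothelial cells, which also use Gata4, moved along with it in part. It was 826 and 1293 CPM at 0 h in replicates 3 and 2, and 3582, 1451 and 1071 CPM at 3 h in replicates 1, 2 and 3. It then lay between 294 and 1069 CPM at 6 h, between 174 and 710 CPM at 12 h, between 162 and 621 CPM at 18 h and between 185 and 528 CPM at 24 h. Of the 10 markers, 1 was at 0 counts in each sample at 0 h and 0 were at 0 counts in the samples at 3 h. At 96 h the sum was 200, 22.5 and 10.3 CPM in replicates 1, 2 and 3, with 3, 7 and 7 markers at 0 counts, while Gata4 was at 95.8, 32.9 and 62.7 CPM. In replicate 1, whose cultures had the highest marker sum at each time, Gata4 was the highest of its group after 6, 12, 24 and 96 h but not after 3 or 18 h. The part of endothelial cells in the levels of Gata4 was not tested.

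**Figure D4:**
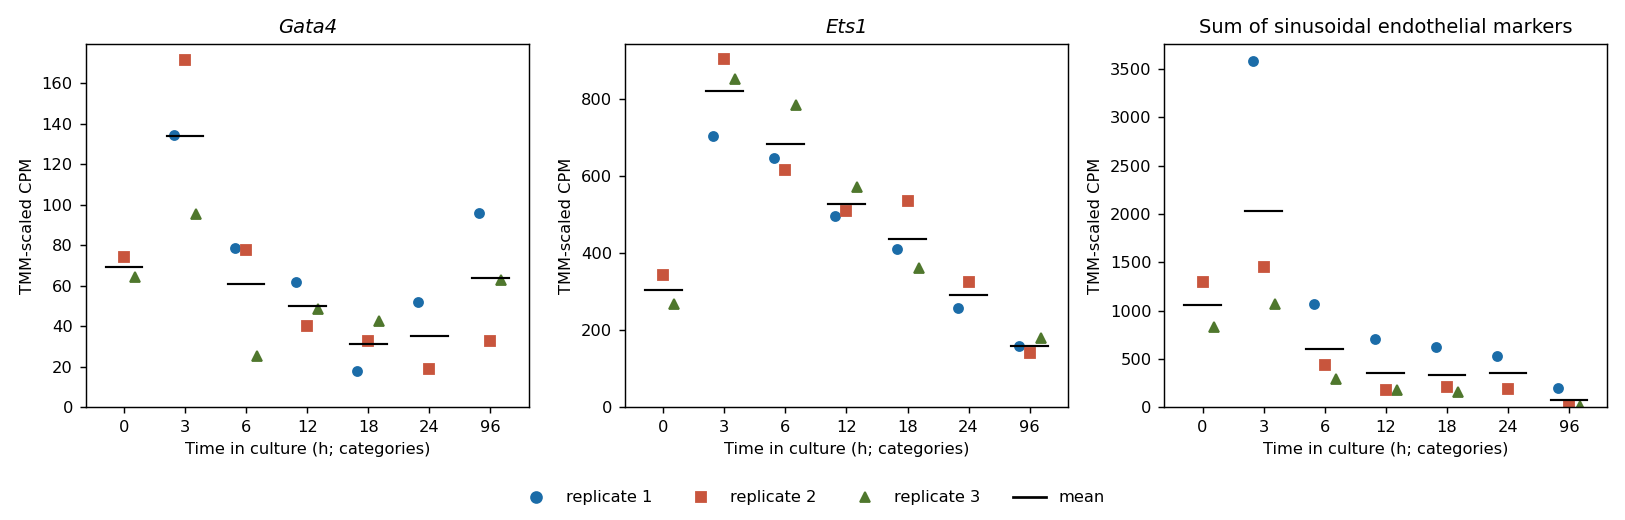
Gata4, Ets1 and the summed level of 10 sinusoidal endothelial markers are plotted per sample in TMM-scaled CPM on linear axes from 0, with group means as lines. The marker sum was highest in replicate 1 at 3 h, at 3582 CPM, whereas Gata4 and Ets1 were highest in replicate 2 at 3 h.

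Gata6 (ENSMUSG00000005836; chr18:11052064-11085635, + strand) was at 30.1 and 49.9 CPM at 0 h in replicates 3 and 2. At 3 h it was at 54.7, 97.3 and 149 CPM in replicates 1, 2 and 3, again all above both samples at 0 h. At 6 h it was at 45.7, 21.1 and 38.5 CPM and at 12 h at 25.2, 20.4 and 28.3 CPM, the lowest group. At 18 h, 24 h and 96 h the samples ranged from 26.1 to 62.4 CPM and overlapped with 0 h.

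Against 0 h, Gata6 was not called at any time, with 1.32 ± 0.52 at 3 h (edgeR adjusted p = 0.213), although DESeq2 called it at 3 h (1.23). Its fall from 3 h to 6 h was called, at -1.51 ± 0.45 (edgeR adjusted p = 0.081). That call was lost with the replicate number as a block (-1.42, edgeR adjusted p = 0.126), with library size scaling, without a filter on low counts, when only the 2 groups were fitted, and without single samples at several times. The difference over all times passed (edgeR adjusted p = 0.0478) but not without replicate 2 or replicate 3 at 3 h.

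Ets1 (ENSMUSG00000032035; chr9:32636221-32757820, + strand), which is also used by endothelial and lymphoid cells, rose at once and then declined below its level at 0 h. It measured 267 CPM in replicate 3 and 343 CPM in replicate 2 at 0 h. At 3 h it was at 704, 905 and 852 CPM in replicates 1, 2 and 3, and at 6 h at 648, 616 and 784 CPM. All these samples were above both at 0 h, as were those at 12 h, with 497, 510 and 571 CPM. At 18 h it was at 410, 536 and 361 CPM, still above both, and at 24 h at 259 and 325 CPM, where it overlapped with 0 h. At 96 h it was at 160, 140 and 180 CPM, below every other sample of the series.

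Ets1 was called higher at 3 h, with a log2 fold change of 1.43 ± 0.21 (edgeR adjusted p = 0.00063), and at 6 h, with 1.16 ± 0.21 (edgeR adjusted p = 0.00167). At 12 h it was 0.79 ± 0.21 (edgeR adjusted p = 0.0166) and at 96 h -0.93 ± 0.20 (edgeR adjusted p = 0.00653), both with an adjusted p under 0.1 but a fold change below 2. The call at 6 h was lost with DESeq2 (0.93) and without replicate 3 at 0 h (0.96), each time through the fold change. DESeq2 called the lower level at 96 h (-1.08), and so did edgeR without replicate 3 at 0 h (-1.10) or at 96 h (-1.02). Within replicates 2 and 3 the change at 3 h was 1.40 and 1.67, with the larger in replicate 3. From 12 h to 96 h Ets1 fell by 1.72 ± 0.19 on the log2 scale (edgeR adjusted p = 1.3e-05). Endothelial markers at 3 h ranged from 1071 to 3582 CPM in sum, and the sample with the highest sum had the lowest Ets1 of that time. The lymphocyte marker sum was at most 17.7 CPM in any sample. The part of endothelial or lymphoid cells in the levels of Ets1 was not tested.

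The order of the levels differed between the genes. For Lhx2 it ran from 0 h to 3 h, 12 h, 96 h, 6 h, 24 h and 18 h, and only the gap between 0 h and 3 h separated neighbouring groups. For Hand2 the groups at 0 h, 96 h, 3 h and 24 h were separate from each other in that order, and those at 24 h, 18 h, 6 h and 12 h each overlapped with the next. Between 12 h and 18 h, 18 h and 24 h, and 24 h and 96 h, 0 of the 8 genes were called, beside 0.225%, 0.0396% and 2.72% of all genes called in either direction, and DESeq2 called 0 as well. Unadjusted p-values under 0.05 in these steps were those of Lhx2 and Hand2 from 12 h to 18 h, and of Ets1 from 18 h to 24 h and from 24 h to 96 h.

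The genes whose log2 CPM ran most closely with each factor were looked up among the 8582 genes that averaged 10 CPM or more, over all 19 samples, which share the time course, its libraries and their depth. For Ets1 they were Ier5 (Pearson r = 0.96), Stk40 (0.95) and Sde2 (0.95), and for Tbx2 Rcn3 (0.94), Zcchc24 (0.89) and 4930523C07Rik (0.88). For Lhx2 the first was Apoa1 (0.93), an apolipoprotein of hepatocytes, followed by mt-Co2 (0.90) and Gm28661 (0.90), a mitochondrial gene and an unprocessed pseudogene that may share reads. For Hand2 they were Lrrk2 (0.92), Eci2 (0.91) and Bcl9l (0.88). Foxf1 ran closest with Slc29a1 (0.85), Zmynd11 (0.84) and Mup15 (0.83), the last from a family of near-identical hepatocyte genes. Gata4 ran closest with Id4 (0.87), Mef2c (0.86) and Gpr182 (0.84), Tcf21 with Gstt2 (0.82), Dock8 (0.82) and Snai2 (0.80), and Gata6 with Emc10 (0.79), S100a10 (0.73) and Alas1 (0.71). The hepatocyte marker sum was also highest at 0 h, as given for all samples, and its part in the patterns of Lhx2 and Foxf1 was not tested.

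Other regulators of transcription were read from lists of the families, binding partners and state of the 8 genes. Among relatives by family, 13 of 34 were tested. At 12 h, 3 were called higher and 1 lower, beside 8.6% and 9.1% of all genes tested. At 96 h, 0 were higher and 1 lower, beside 5.83% and 5.03%. The medians were -0.11 and 0.05. They were 0 at both times when genes with one group wholly at 0 counts were set at the bound of 3 counts per library. Tbx20, a T-box relative of Tbx2, measured 253 to 386 CPM at 0 h, 30.3 to 40.7 CPM at 12 h and 92.8 to 117 CPM at 96 h, and was called lower at both times (-3.15 ± 0.27, edgeR adjusted p = 9.76e-07, and -1.65 ± 0.26, edgeR adjusted p = 0.000512). The forkhead gene Foxp1 rose at 12 h by 1.61 ± 0.24 and Ets2, the nearest relative of Ets1, by 1.09 ± 0.23. Ets2 was not called with DESeq2 (0.86). Foxc2 was called higher too, but rested on 2 counts at 0 h and 4.40 to 20.7 CPM at 12 h.

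Among 14 partners, all tested, 1 was called higher and 3 lower at 12 h, beside 8.6% and 9.1% of all genes tested. At 96 h, 0 were higher and 2 lower, beside 5.83% and 5.03%. The medians were -1.40 and -0.77. Rlim, a ubiquitin ligase that marks LIM domain cofactors for degradation, was at 76.3 to 81.5 CPM at 0 h and 328 to 420 CPM at 12 h, a rise of 2.29 ± 0.31 (edgeR adjusted p = 8.58e-05). Ssbp3 and Ssbp4, which stabilize the LIM cofactor complex, were called lower at 12 h. Their changes were -2.48 ± 0.49 (edgeR adjusted p = 0.00218) and -5.499 ± 1.93 (edgeR adjusted p = 0.0772), so that Ssbp4 was not called at 0.05. Tcf4, a helix-loop-helix partner, was called lower at 12 h too (-1.35 ± 0.27). The call of Tcf4 was lost without replicate 2 at 0 h (-0.86). At 96 h the LIM cofactor Ldb2 was called lower (-7.57 ± 2.66, edgeR adjusted p = 0.099), as was Zfpm2, a cofactor of GATA factors (-1.97 ± 0.62, edgeR adjusted p = 0.0627). Ldb2 was not called with the replicate number as a block, and neither partner was called at 96 h at an adjusted p of 0.05.

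Of 20 other regulators tied to the resting state, 18 were tested. At 12 h, 7 were called lower and 0 higher, beside 9.1% and 8.6% of all genes tested, with a median of -2.31. At 96 h, 6 were lower and 0 higher, beside 5.03% and 5.83%, with a median of -1.37. The notch target Heyl was at 135 and 140 CPM at 0 h and at 0 counts in all 3 samples at 12 h. Set against a floor of 3 counts per library, this was 198-fold lower. The nuclear receptor Nr2f2 went from 597 and 607 CPM to between 29.9 and 56.4 CPM at 12 h (-3.94 ± 0.44, edgeR adjusted p = 1.22e-05) and was at 228 to 443 CPM at 96 h. Its relative Nr2f1 was also called lower at 12 h (-5.08 ± 1.90), a call lost with the replicate number as a block. The interferon regulatory factor Irf1 was lower at 12 h (-3.99 ± 0.39) and 96 h (-5.45 ± 0.42), and Irf2 at 96 h (-2.21 ± 0.25). Zeb2, a zinc finger repressor, fell at 96 h (-3.09 ± 0.29), as did Nr1h4, the bile acid receptor (-3.55 ± 1.22), which was not called with the block.

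Of 12 regulators tied to mesenchymal activation, 9 were tested. At 12 h, 3 were called higher and 1 lower, beside 8.6% and 9.1% of all genes tested. At 96 h, 1 was higher and 0 lower, beside 5.83% and 5.03%. The medians of the list were -0.30 and -0.57. Prrx1 had 0 counts in both samples at 0 h and was at 6.95 to 12.0 CPM at 12 h and 23.1 to 38.7 CPM at 96 h. Set against 3 counts per library, these levels were 5.89-fold and 19.9-fold higher. Runx1 rose at 12 h by 3.00 ± 0.72 (edgeR adjusted p = 0.00978) from 2.01 and 16.8 CPM, and was at 8.03 to 12.6 CPM at 96 h. At 12 h Foxs1, a forkhead gene of perivascular cells, rose by 1.45 ± 0.52 and Snai1, a repressor of epithelial genes, changed by -2.25 ± 0.56. Twist1, and Pparg of the regulators tied to the resting state, were listed at 0 counts in all samples.

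**Figure D5:**
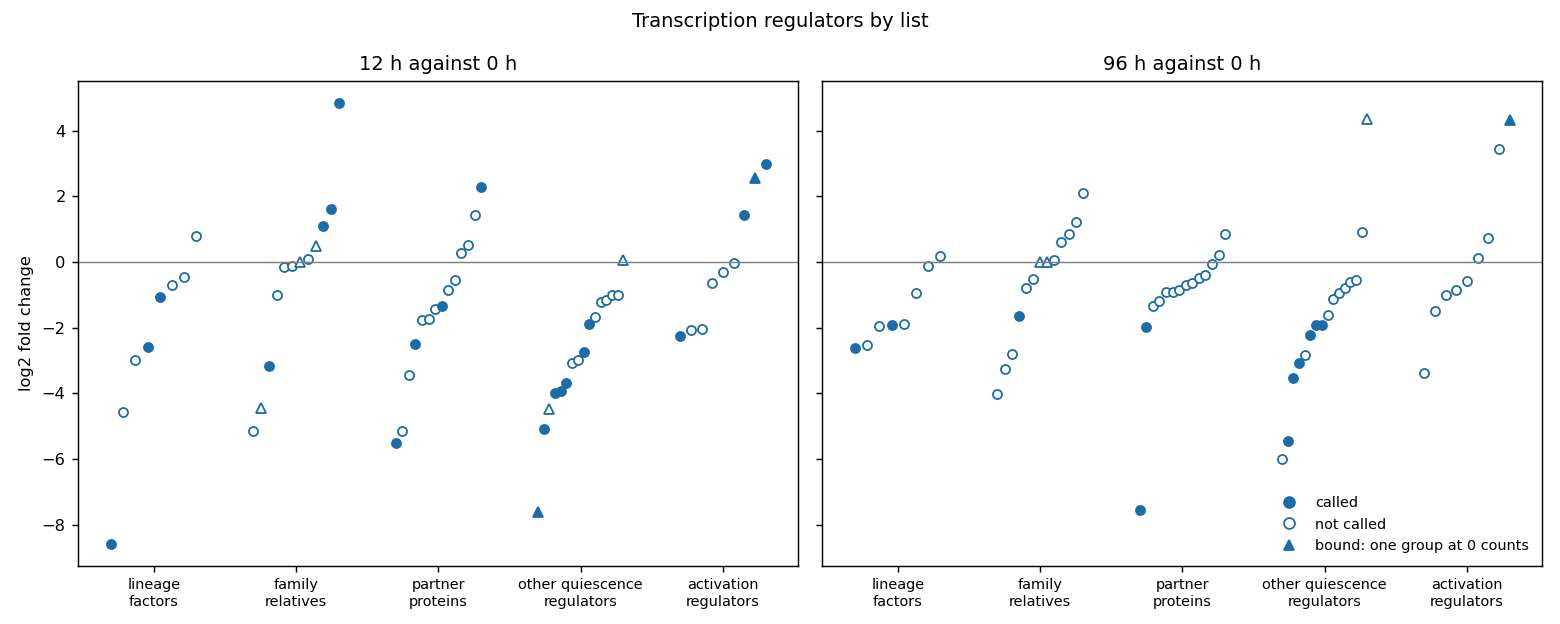
Each point is 1 tested gene at its log2 fold change at 12 h (left) or 96 h (right) against 0 h, by list; filled points were called, and triangles stand at the bound set by 3 counts per library where all samples of one group had 0 counts. Of the other regulators tied to quiescence, 7 of 18 were called lower at 12 h and 0 higher, beside 9.1% and 8.6% of all genes tested.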

How the data were processed

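RNASeq of UV-sorted mouse HSCs was measured in 19 samples at 7 times. The authors deposited raw counts per Ensembl gene, whole numbers without normalization, made from 3′ end reads of a QuantSeq FWD library. The submitters' processing notes name STAR, StringTie and the build mm10 (GRCm38). The counting tool and its strand setting are not given in the sources used here. No column of the count table was left out.

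Symbols and positions came from GENCODE vM21 and promoter windows from RefSeq, both on GRCm38. Groups and replicate numbers came from the sample titles. Counts were filtered with filterByExpr at its defaults, scaled (TMM) and compared by the quasi-likelihood test of edgeR 4.0.16 (R 4.3.3), with time as the only factor and 1 fit of all samples. Adjusted p-values follow Benjamini and Hochberg over 15138 genes. The standard errors given after ± were not estimated by the fit. They are the absolute log2 fold change divided by the square root of the F statistic. The labels do not say what a replicate number stands for, but all samples of a number share an isolation date. The study calls its repeats at each time independent, without saying whether each was a separate animal. Where samples of a time are not from separate animals, p-values cover technical spread only. The mean correlation of residuals was 0.014 for the 51 pairs of samples with the same number and -0.007 for the 103 pairs with different numbers. Alternatives were library size scaling, DESeq2 1.42.0, no filter, the replicate number as a block, only the 2 groups compared, a threshold of 0.05 and leaving out each sample, and, added after the data were seen, the isolation date as a covariate. The fit was tested on simulated data.

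The 8 genes and the lists of other regulators and markers were chosen with earlier results of these data known. Named from each list were up to 4 called genes a direction with the largest fold change at 12 h and 96 h, genes on the opposite strand within 5 kb with at least 10 counts in all, and, for each factor, the 3 genes with the highest correlation. Among those neighbours, 1010001N08Rik beside Gata6, 2610027K06Rik beside Tbx2 and Mthfsd beside Foxf1 were not called against 0 h at any time.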

Additional observations from a re-analysis of the deposited data

How the results depend on the processing

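Lhx2 was called lower at all 6 times, Hand2 at 12 h, Foxf1 at 6, 18, 24 and 96 h and Ets1 higher at 3 h under every alternative run. The number of the 8 genes called changed as follows. The share of all genes called under each alternative was not worked out. A changed count, here or in the lists, is thus not a result about the listed genes alone. With DESeq2, 2 were higher at 3 h and 0 at 6 h, and 5 lower at 12 h. With only the 2 groups compared, 2 were lower at 3 h and 2 after 18 h, 5 after 24 h and 4 after 96 h, and 1 was higher at 96 h than at 24 h. At an adjusted p of 0.05, 2 were lower at 18 h and 1 from 3 h to 6 h. Leaving out single samples gave 0 to 1 higher at 6 h, 2 to 4 lower at 18 h, 1 to 3 lower from 3 h to 6 h and 0 to 1 lower from 24 h to 96 h.

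Among relatives by family, DESeq2 called 3 at 96 h against 0 h and 7 at 96 h against 12 h (1 and 3 with edgeR), and single samples left out gave 1 to 2 at 96 h and 2 to 5 at 12 h against 0 h. Of the quiescence regulators DESeq2 called 11 at 12 h, and single samples left out gave 3 to 6 at 96 h. Of the partners, 0 were called at 96 h at an adjusted p of 0.05 and 1 with library size scaling or no filter, and single samples left out gave 0 to 2 at 96 h, 3 to 7 at 12 h and 3 to 5 for 96 h against 12 h. Of the activation regulators, 2 were called for 96 h against 12 h at 0.05 and 2 to 4 with single samples left out. With the replicate number as a replicate block, 2 relatives and 1 partner were called at 96 h against 0 h, and 2 of the 8 genes were lower at 6 h than at 3 h (3 without it). Beside the calls named as lost under the block, it changed no other call of a named gene. With the isolation date as a covariate, chosen after the data were seen, 2 relatives and 1 partner were called at 96 h against 0 h as well, and the calls of Gata6 from 3 h to 6 h, Hand2os1 at 3 h, Nr2f1 at 12 h and Ldb2 and Nr1h4 at 96 h were lost, but no other call of a named gene changed.

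Directions turned only for values that were not called. Ets1 at 24 h was 0.0015 with the replicate block and 0.22 with library size scaling (-0.06 otherwise), Gata4 at 96 h was 0.029 with library size scaling, and Gata6 was -0.086 at 18 h and -0.073 at 24 h with DESeq2. Leaving out single samples gave -0.23 to 0.10 for Ets1 at 24 h, -0.46 to 0.17 for Gata4 at 6 h and -0.53 to 0.19 at 96 h. For Gata6 it gave -0.54 to 0.20 at 6 h and -0.20 to 0.51 after 18 h, and -0.16 to 0.54 after 24 h and -0.13 to 0.60 after 96 h. The causes were not tested. Without a sample at 0 h or 24 h, the lone sample was assumed to vary like the other groups. The depth of 2073171 counts in the smallest sample, at 0 h, limits what can be shown at low levels.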
